A study of Mus musculus with 18 samples.

Results

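Early progenitor genes of the thymus are the genes that the first cells to settle there carry over from their blood stem cell ancestors. The 9 described here were listed by name for this known role, with earlier results of these data in view: Flt3, Cd34, Lmo2, Lyl1, Hhex, Mef2c, Bcl11a, Meis1 and Hoxa9, out of 34082 gene symbols in the deposited table. All 9 have a row there. Transcript levels were measured by RNA-seq in 18 libraries from 7 thymocyte populations, in a study of the precursors of Tgd17 cells, IL-17 producers of the gamma delta lineage. The populations, as their labels name them, were DN1ab (n = 2), DN1d (n = 2), DN1e (n = 3), DN1 ckit+ (n = 3), DN2 (n = 3), DN4 (n = 3) and ImmV2 (n = 2), and the design text offers ImmV2 for comparison with the rest. All were thymus cells of the C57BL/6 strain, taken at postnatal day 10, with no treatment or genetic alteration given in the labels, and each library started from about 10000 sorted cells. DN1, DN2 and DN4 are successive stages of double-negative thymocytes, cells without CD4 or CD8, and ckit+ marks cells with the receptor Kit on their surface. The gates behind the letters a to e and the meaning of ImmV2 are stated by no label. The design text calls the replicates biological but nothing in the labels ties them to separate mice, so p-values measure only how far these libraries spread, and that spread may be technical.

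The proteins fall into 2 kinds. FLT3 is a receptor tyrosine kinase and CD34 a sialomucin, and both sit on the surface of blood progenitors. The other members are nuclear. LYL1 is a basic helix-loop-helix factor that binds E-boxes together with E proteins, and LMO2 is a LIM-domain adaptor that bridges such factors to other proteins. HHEX, MEIS1 and HOXA9 are homeodomain factors, MEF2C is a MADS-box factor and BCL11A is a zinc finger factor used by B cells and plasmacytoid dendritic cells. In mouse thymus this programme is known to be shut down as cells pass from DN1 and DN2 to T-lineage commitment, when factors such as BCL11B come on.

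The table and its labels were checked first. Values are FPKM (fragments scaled by transcript length and by the mapped fragments of the library), deposited by the authors on a log2 scale with a lowest value of 0.01 FPKM, and no counts accompany them, so the depth is unknown. Between 34.5% and 53.6% of rows stood at that lowest value in a library, whereas the share of rows at 1 FPKM or more stayed between 30.2% and 31.2%. Between 97.0% and 98.2% of a library's values above 1 FPKM recurred exactly (to 9 decimals of the log2 value) in another library, as where values are assigned by rank, so a value gives a gene's place within its library and levels of different genes are not compared. Genes that every cell uses could be near the bottom: Actb was under 1 FPKM in 11 of 18 libraries and Hsp90ab1 in 10. Of 4 housekeeping genes checked, 1 set DN4 apart, Hsp90ab1 (F test adjusted p = 0.000403, limma). It reached 965, 1081 and 1521 FPKM in DN4 libraries, against 4.88 FPKM or less in the other populations. Actb, at 675 to 965 FPKM in DN4, was at 1585 FPKM in DN2 2. Eef1a1 was at 0.0924 FPKM in DN4 1 and at 482 and 554 FPKM in DN1ab. Gapdh, at 15.25 to 69.42 FPKM in DN4, reached 92.85 FPKM in DN1 ckit+ 3. The 4 genes summed to 1935 to 3385 FPKM in DN4, against 11.3 to 96.6 FPKM in DN1 ckit+ and 85.2 to 1059 FPKM in ImmV2. In DN1ab the sum was 489.2 to 610.5 FPKM and in DN2 15.9 to 1585 FPKM. In DN1d it was 4.72 to 39.6 FPKM and in DN1e 3.91 to 9.10 FPKM. Of a gene at 0.01 FPKM it is thus stated only that this lowest value is listed. The labelled gate of DN1 ckit+ matched its transcript, since Kit was at 95.6, 49.9 and 141 FPKM in DN1 ckit+ cells and 5.99 and 17.3 FPKM in ImmV2 cells. Other defining transcripts were unreliable. Cd44, which encodes a surface protein that helps define DN1 and DN2 cells, was under 1 FPKM in 15 libraries, and Ptprc, which encodes the pan-leukocyte CD45, in 7.

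The promoters of Flt3, Cd34 and Lyl1, the 3 members with an unadjusted p under 0.05 over the populations (given after the sequences), are shown because LYL1 binds the E-box. They are RefSeq sequences of build GRCm38.p6, from 250 bases before to 50 after the start of the gene, written 5′ to 3′ in the direction of transcription, with E-boxes in capitals. The Flt3 window is chr5:147400440-147400739 on the minus strand, that of Cd34 chr1:194938571-194938870 on the plus strand and that of Lyl1 chr8:84701207-84701506 on the plus strand.
Flt3: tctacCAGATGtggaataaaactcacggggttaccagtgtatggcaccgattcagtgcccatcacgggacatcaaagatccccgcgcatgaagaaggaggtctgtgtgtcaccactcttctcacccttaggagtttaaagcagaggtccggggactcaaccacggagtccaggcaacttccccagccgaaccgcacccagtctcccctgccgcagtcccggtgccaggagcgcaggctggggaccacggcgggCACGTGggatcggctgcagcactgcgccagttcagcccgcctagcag
Cd34: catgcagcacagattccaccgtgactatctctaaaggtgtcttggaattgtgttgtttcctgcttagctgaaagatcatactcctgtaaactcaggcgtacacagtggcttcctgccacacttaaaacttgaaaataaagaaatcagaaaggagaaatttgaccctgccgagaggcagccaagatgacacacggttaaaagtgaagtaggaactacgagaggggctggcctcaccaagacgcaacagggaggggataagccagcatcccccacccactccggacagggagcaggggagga
Lyl1: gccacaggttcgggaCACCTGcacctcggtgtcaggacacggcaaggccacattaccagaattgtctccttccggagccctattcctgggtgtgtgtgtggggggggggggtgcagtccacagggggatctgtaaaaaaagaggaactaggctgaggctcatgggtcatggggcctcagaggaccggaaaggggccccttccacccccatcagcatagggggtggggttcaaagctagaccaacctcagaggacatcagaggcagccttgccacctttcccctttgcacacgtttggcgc
The Flt3 window held 2 matches to the E-box CANNTG, the Lyl1 window 1 and the Cd34 window 0. Of 32851 promoter windows of 300 bases, 72.3% held at least 1 match on either strand. In all, 8 of the 9 members matched the promoter table, every member but Lmo2, with 10 windows between them. The MEIS motif TGACAG was in 19.2% of all windows on either strand, and in 0 of these 10. The motif AGATAA of GATA factors was in 11.2% of all windows, and likewise in 0 of the 10.

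Across the 7 populations, Flt3 was the member that differed. Limma's moderated F test on log2(FPKM + 1) gave Flt3 an adjusted p of 0.0155 (Benjamini-Hochberg over 24525 genes, those that reached 1 FPKM in 2 or more libraries). It was the only 1 of 9 members called at an adjusted p under 0.05, against 1.4% of all genes tested. Cd34 followed with an adjusted p of 0.0881 and Lyl1 with 0.398 in the same limma test. The other 6 members lay between 0.664 and 0.825. At an unadjusted p under 0.05 there were 3 members, Flt3, Cd34 and Lyl1, against 11.3% of all genes. All 9 members passed the filter on low values, Hoxa9 with 2 libraries at 1 FPKM or more and Lmo2 with 3.

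**Figure D1:**
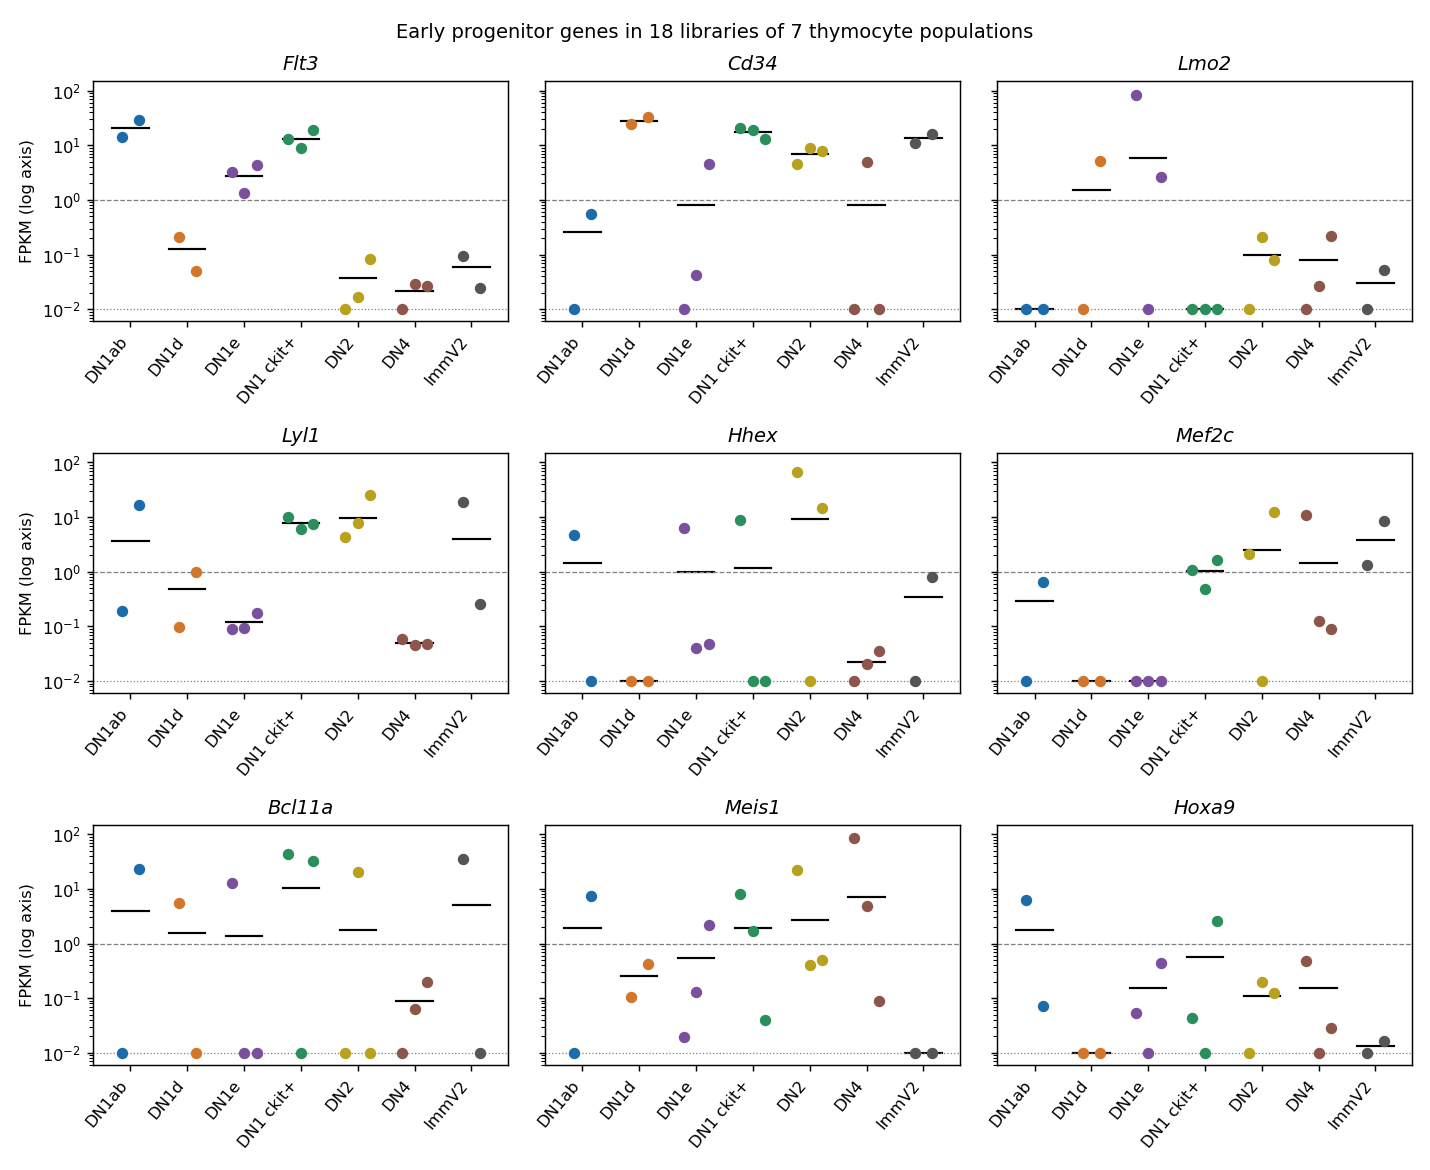
FPKM (log axis) of the 9 genes in each library (points) by population, with the mean on the log2(FPKM + 1) scale as a bar, the lowest deposited value as a dotted line and 1 FPKM as a dashed line. Flt3 separates DN1ab, DN1e and DN1 ckit+ from the other populations with no library out of place, while Bcl11a, Hhex and Meis1 have libraries of 1 population far apart.

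Flt3 encodes the receptor for FLT3 ligand, which thymus-seeding progenitors use and lose early. In DN1ab it was at 14.3 and 28.7 FPKM, in DN1d at 0.210 and 0.0505 FPKM and in DN1e at 3.30, 1.33 and 4.38 FPKM. In DN1 ckit+ it was at 12.8, 9.11 and 19.3 FPKM. DN2 cells had the lowest value, 0.0171 and 0.0843 FPKM, DN4 cells the lowest value, 0.0295 and 0.0261 FPKM, and ImmV2 cells 0.0938 and 0.0246 FPKM. The 8 libraries of DN1ab, DN1e and DN1 ckit+ thus lay at 1.33 FPKM or more, and the 10 libraries of the other 4 populations at 0.210 FPKM or less. Ordered by mean, DN1ab stood above DN1 ckit+, whose values overlapped with it. DN1e came next and overlapped with neither DN1 ckit+ above it nor DN1d below it, and from DN1d downward each neighbour overlapped the next. Of all genes tested, 16.2% likewise did not overlap between DN1e and DN1 ckit+, and the share for DN1e and DN1d was not counted. Flt3 was also the only 1 of the 9 genes for which no population had libraries on both sides of 1 FPKM. The same held for 2.9% of all genes tested. Its residual SD in the fit, 0.402 on the log2 scale, was at the 1.75th percentile of all genes tested.

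Against ImmV2, the log2 difference of Flt3 was 4.33 ± 0.95 (SE) in DN1ab (adjusted p = 0.0631, limma) and 3.74 ± 0.87 in DN1 ckit+ (adjusted p = 0.0953, limma). In DN1e it was 1.84 ± 0.87 (adjusted p = 0.486, limma). None of these passed over all genes. Against DN1 ckit+ it was -3.65 ± 0.87 in DN1d (adjusted p = 0.1001, limma) and -1.90 ± 0.77 in DN1e (adjusted p = 0.351, limma). In DN2 it was -3.77 ± 0.77 (adjusted p = 0.0897, limma) and in DN4 -3.79 ± 0.77 (adjusted p = 0.0562, limma), again below DN1 ckit+ without passing. The median log2 difference of the 4 housekeeping genes between DN4 and DN1 ckit+ went the other way, at 6.97, with 1 of the 4 called. Their part in the DN4 values was not tested. These differences are on the log2(FPKM + 1) scale, which understates the change of low genes, and all fits share the spread of the 18 libraries.

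DN1d, ImmV2 and DN4 were also compared together with DN1ab, DN1 ckit+ and DN2, the populations that the usual scheme counts among Kit-bearing early stages, each population with equal weight. Flt3 fell by 2.67 ± 0.50 on the log2 scale (adjusted p = 0.0418, limma) and was the only 1 of 9 members called, against 0.179% of genes tested. At an unadjusted p under 0.05 there were 2 members, Flt3 and Lyl1, against 7.7% of all genes. The 7 libraries of DN1d, ImmV2 and DN4 ran from 0.01 to 0.210 FPKM, and the 8 of DN1ab, DN1 ckit+ and DN2 from 0.01 to 28.7 FPKM. The sets overlapped, with Flt3 as low in DN2 as in DN4. The call did not hold without any 1 of 13 libraries (both ImmV2, all DN1 ckit+, all DN2 and all DN4 libraries, DN1ab 2 and DN1d 2), with adjusted p up to 0.0883 in limma. It held without DN1ab 1, DN1d 1 or any DN1e library. The call was lost, too, when 0.1 FPKM was the pseudocount and on the log2 FPKM as deposited, the setting with the highest adjusted p, 0.156 in limma.

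FLT3 is also a receptor of dendritic cell precursors, so markers of dendritic and plasmacytoid cells were set beside it. Their sum over 7 genes ranged from 2.07 to 22.03 FPKM in DN1ab, from 9.36 to 299 FPKM in DN1e and from 1.95 to 16.6 FPKM in DN1 ckit+. In the low populations it ranged from 4.83 to 36.0 FPKM in DN1d, 5.55 to 13.6 FPKM in DN2, 3.00 to 128 FPKM in DN4 and 13.2 to 30.2 FPKM in ImmV2. The ranges of DN1ab and DN1 ckit+ thus overlapped those of all 4 populations with low Flt3. Single markers differed from the sum. Batf3, a factor of dendritic cells, was at 7.005 and 0.759 FPKM in DN1ab and at 10.4, 3.00 and 20.5 FPKM in DN1e, and was listed at the lowest value in every other library, DN1 ckit+ included. It was the 1 dendritic marker called higher in DN1e than in DN1 ckit+ (adjusted p = 0.0426, limma), of 6 tested. Zbtb46, another such factor, was at 0.0700 FPKM or less in all libraries. The 7 listed myeloid markers, of which 6 have a row, summed to 81.6 to 144 FPKM in DN1ab, 617 to 1140 FPKM in DN1e and 32.01 to 114 FPKM in DN1 ckit+, against 0.759 to 106 FPKM in ImmV2. In DN1ab and in DN1e, 4 to 5 of the 6 were at 1 FPKM or more, against 0 to 3 in ImmV2. The count was 2 to 5 in DN1 ckit+, 1 to 4 in DN1d, and 2 to 4 in DN2 and in DN4. Tyrobp, an adaptor of myeloid receptors, was at 43.5 and 30.8 FPKM in DN1ab, and ImmV2 listed it only at the lowest value. Other markers went the other way. Csf1r was at 0.0934 FPKM or less in DN1ab and DN1e, against 0.5695 and 1.167 FPKM in ImmV2. Cd68 was at 18.35 FPKM and Itgam at 86.1 FPKM in ImmV2 2, and both were listed at the lowest value in ImmV2 1. Against ImmV2, 2 of the 6 were called higher in DN1e and 0 in DN1ab, where 3 had an unadjusted p under 0.05 (limma). The part of dendritic and myeloid cells in the Flt3 levels was not tested. In bulk libraries such as these, fewer cells of a type and less RNA per cell cannot be told apart.

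Cd34 had its high values in another set of populations. In DN1ab it was at 0.01 and 0.559 FPKM, in DN1d at 24.7 and 32.4 FPKM and in DN1e at 0.01, 0.0416 and 4.50 FPKM. In DN1 ckit+ it was at 21.1, 19.4 and 13.0 FPKM and in DN2 at 4.55, 8.83 and 7.82 FPKM. DN4 had 0.01, 4.95 and 0.01 FPKM, and in ImmV2 it was at 10.9 and 16.3 FPKM. By mean the order was DN1d, DN1 ckit+, ImmV2, DN2, DN4, DN1e and DN1ab. DN1d did not overlap DN1 ckit+ and ImmV2 did not overlap DN2, while the other neighbours overlapped. Of all genes tested, 22.7% likewise did not overlap between DN1d and DN1 ckit+, and 18.6% between ImmV2 and DN2. All 10 libraries of DN1d, DN1 ckit+, DN2 and ImmV2 were at 4.55 FPKM or more, and both DN1ab libraries were under 1 FPKM.

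Against ImmV2 the log2 difference of Cd34 was -3.51 ± 1.19 in DN1ab (adjusted p = 0.378, limma), -3.00 ± 1.08 in DN1e (adjusted p = 0.323, limma) and -2.97 ± 1.08 in DN4 (adjusted p = 0.509, limma). Against DN1 ckit+ it was -3.88 ± 1.08 in DN1ab (adjusted p = 0.238, limma), -3.36 ± 0.97 in DN1e (adjusted p = 0.159, limma) and -3.34 ± 0.97 in DN4 (adjusted p = 0.272, limma). DN4 cells were at -2.10 ± 0.97 against DN2 (adjusted p = 0.896, limma). All of these had an unadjusted p under 0.05 and none passed over all genes. The DN1e library with 4.50 FPKM decided the value in DN1e: without it the difference from DN1 ckit+ was -4.17 (adjusted p = 0.0493, limma) and Cd34 passed the F test (adjusted p = 0.0433, limma). CD34 is also carried by blood vessel endothelium. The 5 endothelial markers summed to 9.71 to 27.3 FPKM in DN1d, where Cd34 was highest, against 22.6 to 53.1 FPKM in DN1 ckit+ and 64.4 to 98.9 FPKM in ImmV2. In DN2 the sum was 33.3 to 65.9 FPKM. It was 21.4 to 30.7 FPKM in DN1ab, 19.9 to 101.8 FPKM in DN1e and 24.4 to 62.4 FPKM in DN4. Pecam1, an adhesion molecule of endothelium and of some blood cells, had levels of 27.2 and 9.63 FPKM in DN1d cells and of 35.1, 21.5 and 38.3 FPKM in DN1 ckit+ cells, against 98.9 and 49.7 FPKM in ImmV2. Kdr, a receptor for VEGF, had 0.01 and 0.0510 FPKM in DN1d cells, against 0.01 and 12.2 FPKM in ImmV2. It was at 17.97, 0.919 and 7.08 FPKM in DN1 ckit+ and at 5.55, 2.16 and 6.35 FPKM in DN2, but also at 11.6 and 9.97 FPKM in DN1ab. Emcn, a further endothelial marker, was at 17.5, 14.3 and 4.32 FPKM in DN2 and at 2.39 FPKM in ImmV2 2. It also reached 12.0 FPKM in DN1ab 2 and 15.05 FPKM in DN4 1. Cdh5, the cadherin of endothelial junctions, was listed at the lowest value in every DN1d, DN4 and ImmV2 library. It was at 0.170 FPKM or less in DN1ab, DN1 ckit+ and DN2, but at 3.04, 4.77 and 90.8 FPKM in DN1e. The highest of these was in DN1e 3, the library with Cd34 at 4.50 FPKM. That library listed Kdr and Emcn at the lowest value, and its Pecam1, at 10.98 FPKM, was the lowest in DN1e. The part of endothelium in the Cd34 levels was not tested.

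**Figure D2:**
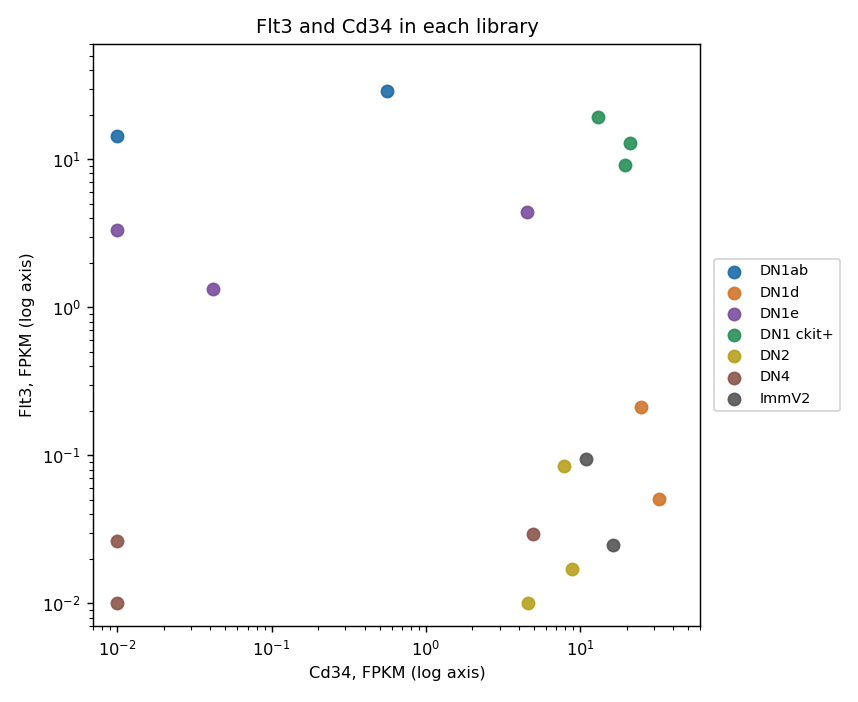
Flt3 against Cd34 in each of the 18 libraries (FPKM, log axes), coloured by population. DN1ab lies at upper left, DN1 ckit+ at upper right with both genes at 9.11 FPKM or more, and DN1d, DN2 and ImmV2 at lower right.

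Set side by side, each gene was at 1 FPKM or more in populations where the other was lower, though the difference between their patterns was not tested. Both DN1ab libraries were at 14.3 FPKM or more for Flt3 and under 1 FPKM for Cd34. The 7 libraries of DN1d, DN2 and ImmV2 were at 0.210 FPKM or less for Flt3 and at 4.55 FPKM or more for Cd34. DN1 ckit+ was the only population with both at 5 FPKM or more in every library. Over the 18 libraries, which share the authors' scaling, the Pearson correlations among the 9 members, 36 pairs in all, ran from -0.301 to 0.544 with a median of 0.000633, and 1 pair, Lyl1 and Bcl11a, exceeded 0.5.

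Lyl1 is the basic helix-loop-helix member, and mouse progenitors without it make few early thymocytes. It was never listed at the lowest value. In DN1ab its levels were 0.188 and 16.8 FPKM, and in DN1d 0.0975 and 0.985 FPKM. DN1e had 0.0891, 0.0927 and 0.176 FPKM. DN1 ckit+ had 10.2, 6.11 and 7.50 FPKM, DN2 had 4.37, 7.84 and 25.4 FPKM, DN4 had 0.0581, 0.0460 and 0.0472 FPKM, and ImmV2 had 19.1 and 0.260 FPKM. All libraries of DN1 ckit+ and DN2 were at 4.37 FPKM or more and all of DN1d, DN1e and DN4 under 1 FPKM, while DN1ab and ImmV2 had a library on each side. In the order of means, DN2, DN1 ckit+, ImmV2, DN1ab, DN1d, DN1e and DN4, only the last neighbours, DN1e and DN4, did not overlap. Both of these were at 0.176 FPKM or less, and the share of all genes for that pair was not counted.

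The log2 difference of Lyl1 in DN4 was -3.36 ± 1.14 against DN2 (adjusted p = 0.612, limma) and -3.07 ± 1.14 against DN1 ckit+ (adjusted p = 0.490, limma). In DN1e it was -2.98 ± 1.14 against DN1 ckit+ (adjusted p = 0.316, limma). For DN1d, ImmV2 and DN4 together it was -1.94 ± 0.74 against DN1ab, DN1 ckit+ and DN2 (adjusted p = 0.493, limma). Each had an unadjusted p under 0.05 and none passed over all genes. Unlike Flt3, Lyl1 was as high in DN2 as in DN1 ckit+ in these libraries, though the difference between the genes was not tested.

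**Figure D3:**
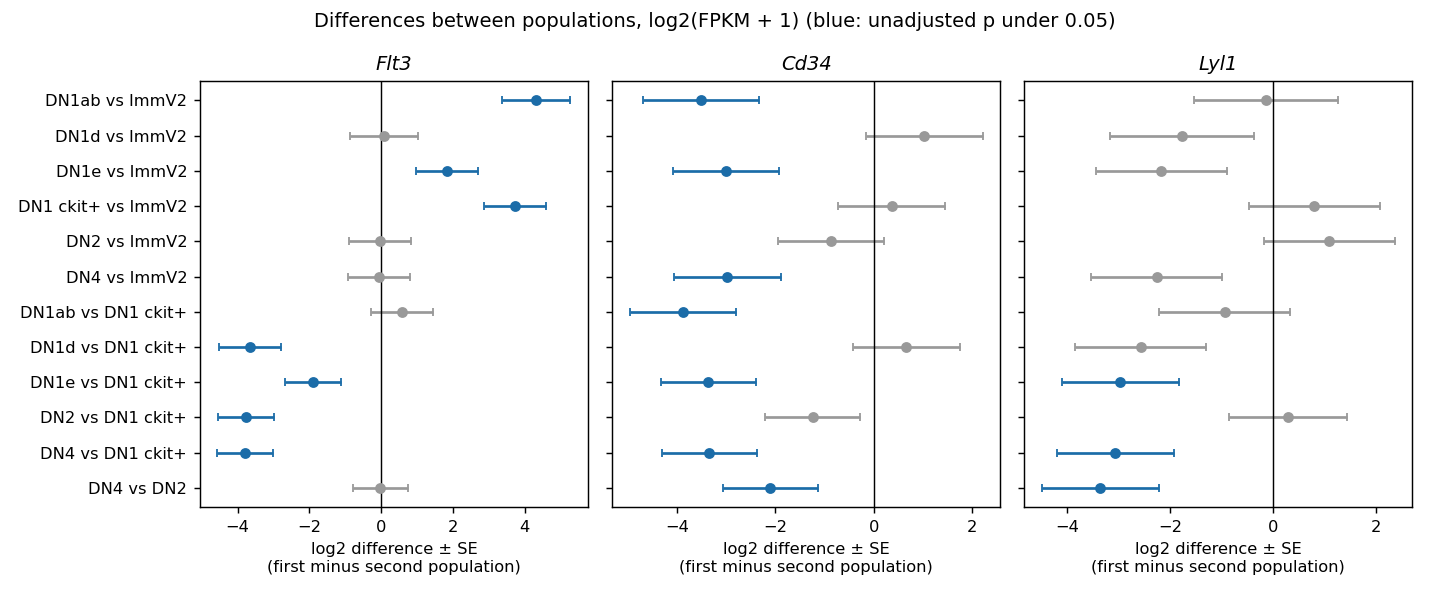
Log2 differences (points, with SE bars) of Flt3, Cd34 and Lyl1 in 12 comparisons of populations, first minus second, on the log2(FPKM + 1) scale. Flt3 is higher than ImmV2 in DN1ab and DN1 ckit+ by 4.33 and 3.74, Cd34 has a difference of -3.51 from ImmV2 in DN1ab, and none of the points passed when adjusted over all genes.

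LMO2 is the adaptor partner of LYL1, and the gene of the homeodomain factor HHEX is a known target of LMO2 in mouse thymocytes. Levels of both genes varied widely between libraries of the same population. Lmo2 was at 83.8, 0.01 and 2.67 FPKM in DN1e and at 0.01 and 5.21 FPKM in DN1d. It was listed at the lowest value in every DN1ab and DN1 ckit+ library and was at 0.215 FPKM or less in the DN2, DN4 and ImmV2 libraries. Only 3 of 18 libraries reached 1 FPKM, and no population had all its libraries there. Against ImmV2, the log2 difference of Lmo2 in DN1e was 2.72 ± 1.25 (adjusted p = 0.466, limma), which was 0.90 without DN1e 1. Hhex reached 66.3, 0.01 and 14.98 FPKM in DN2. Its other values at 1 FPKM or more were a single library each of DN1ab (4.80 FPKM), DN1e (6.44 FPKM) and DN1 ckit+ (8.79 FPKM). In DN1d, DN4 and ImmV2 all libraries were under 1 FPKM. In DN4 against DN2 the log2 difference of Hhex was -3.33 ± 1.37 (adjusted p = 0.786, limma), and it was -1.97 without DN2 1. Lmo2 and Hhex were both at 1 FPKM or more in 1 library only, DN1e 1.

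MEIS1 and HOXA9 act together in blood stem cells. Meis1 was at 84.4, 4.78 and 0.0890 FPKM in DN4, the latest of the double-negative stages here, and at 22.5, 0.397 and 0.511 FPKM in DN2. DN1ab had 0.01 and 7.55 FPKM, DN1d 0.105 and 0.419 FPKM, DN1e 0.0192, 0.129 and 2.15 FPKM, and DN1 ckit+ 8.02, 1.69 and 0.0406 FPKM. Both ImmV2 libraries were listed at the lowest value, so no difference from ImmV2 is given. Libraries of 1 population lay on both sides of 1 FPKM in 5 of 7 populations, and the F test gave an adjusted p of 0.810 in limma. Hoxa9 was listed at the lowest value in 7 of 18 libraries. It exceeded 1 FPKM in DN1ab 1, at 6.24 FPKM, and DN1 ckit+ 3, at 2.60 FPKM, and was at 0.475 FPKM or less in the other 16 libraries. Both DN1d libraries were listed at the lowest value (F test adjusted p = 0.780, limma).

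BCL11A and MEF2C belong to the progenitor programme and also to B and myeloid cells. Bcl11a switched between 0.01 FPKM and high values from library to library. It was at 0.01 and 23.2 FPKM in DN1ab, 5.48 and 0.01 FPKM in DN1d, 12.6, 0.01 and 0.01 FPKM in DN1e, and 43.8, 0.01 and 32.8 FPKM in DN1 ckit+. DN2 had 0.01, 20.6 and 0.01 FPKM, DN4 0.01, 0.0630 and 0.201 FPKM, and ImmV2 34.6 and 0.01 FPKM. Only DN4 kept all its libraries on the same side of 1 FPKM, and the residual SD of Bcl11a, 2.49 on the log2 scale, was at the 92.5th percentile of genes tested. Its F test gave an adjusted p of 0.825 in limma. Mef2c was listed at the lowest value in every DN1d and DN1e library. It was at 0.01 and 0.653 FPKM in DN1ab, 1.07, 0.489 and 1.64 FPKM in DN1 ckit+, and 2.10, 0.01 and 12.4 FPKM in DN2. DN4 libraries had 10.7, 0.126 and 0.0888 FPKM. The ImmV2 libraries had 1.35 and 8.52 FPKM. Thus ImmV2 was the only population with every Mef2c value above 1 FPKM, without passing the F test (adjusted p = 0.771, limma).

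B cell markers were set beside these genes. Cd79a, which encodes a chain of the B cell receptor complex, was at 0.01 and 81.2 FPKM in DN1ab, where Bcl11a was at 0.01 and 23.2 FPKM. In DN1 ckit+ it was at 0.0207, 0.0220 and 0.126 FPKM, and Bcl11a reached 43.8 FPKM there. Pax5, a B cell factor, was at 44.4, 0.01 and 0.890 FPKM in DN1 ckit+, with its highest value in the library in which Bcl11a was highest. Both ImmV2 libraries listed Cd79a, Ms4a1 and Blnk at the lowest value. The other receptor chain gene, Cd79b, was at 9.37 and 0.480 FPKM in ImmV2, where Bcl11a was at 34.6 and 0.01 FPKM, and Ebf1, a B cell factor, was at 0.767 and 0.535 FPKM. The part of B cells in the Bcl11a and Mef2c levels was not tested in any population.

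Libraries of 1 population fell on both sides of 1 FPKM in a median of 2 of 7 populations for the 9 members, against 3 for all 24525 genes tested. The number of members at 1 FPKM or more in a library ran from 0 in DN4 3 to 7 in DN1 ckit+ 1. DN1 ckit+ libraries had 7, 4 and 6 members at that level, DN2 libraries 5, 3 and 4, and DN4 libraries 2, 2 and 0. DN1ab libraries had 3 and 4, DN1d 2 and 2, DN1e 4, 1 and 4, and ImmV2 4 and 2. DN1 ckit+ 1 had the fewest rows at the lowest value, 34.5%, and DN2 1, with 5 members, had the most, 53.6%. Of all rows, 30.2% to 31.2% were at 1 FPKM or more in each library. The part of the lowest value in these counts was not tested.

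Of the 12 comparisons between single populations, limma called 0 of the 9 members in each. Against ImmV2, the share of all genes called was 0.396% in DN1ab, where 2 members had an unadjusted p under 0.05 (7.74% of all genes did). In DN1d 0.277% of genes were called, and 0 members had an unadjusted p under 0.05 (6.9% of genes). DN1e had 0.591% of genes called and 3 such members (10.2% of genes). DN1 ckit+ had 0.33% called and 1 such member (7.23%). DN2 had 0.188% called and 0 such members (6.92%), and DN4 0.249% and 1 (7.03%). Against DN1 ckit+, DN1ab had 0.298% of genes called and 1 member at an unadjusted p under 0.05 (7.36% of genes). DN1d had 0.363% called and 1 such member (8.43%), and DN1e 0.693% and 4 (10.8%). DN2 had 0.0612% called and 1 such member (5.94%), and DN4 0.208% and 3 (7.1%). In DN4 against DN2, 0.0815% of genes were called and 3 members had an unadjusted p under 0.05 (5.44%). The median log2 difference of the members, those listed at the lowest value included, was 0 in DN1ab, -1.09 in DN1d, -0.99 in DN1e, 0.12 in DN2 and -1.07 in DN4 against DN1 ckit+. Against ImmV2 it was -0.03 in DN1ab, -0.00473 in DN1d, 0.19 in DN1e, 0.67 in DN1 ckit+, 0.09 in DN2 and -0.40 in DN4, and in DN4 against DN2 it was -0.52. The medians of all genes tested ran from -0.00479 to 0.00816. Comparisons with ImmV2 share its libraries, as those with DN1 ckit+ share theirs.

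Other genes of the same programme were counted too. In the F test, 1.4% of all genes tested were called and 11.3% had an unadjusted p under 0.05. Of 17 further progenitor genes, 14 were tested and 0 were called in the F test or in any of the 13 comparisons in limma, with 1, Kit, at an unadjusted p under 0.05 in the F test (adjusted p = 0.0877, limma). Kit was the one with the highest mean. DN1ab libraries had 18.3 and 55.6 FPKM of it, and DN1d libraries 0.0400 and 8.03 FPKM. DN1e libraries had 0.660, 0.527 and 12.2 FPKM. In DN2 it was at 13.9, 60.2 and 106 FPKM and in DN4 at 1.63, 2.92 and 0.563 FPKM. Kit therefore stayed high in DN2, where Flt3 was at 0.0843 FPKM or less. Of 9 partners of LMO2 and LYL1, 7 were tested and 0 called in the F test, with 2 at an unadjusted p under 0.05. The partner with the highest mean, Tcf12, an E protein, was at 37.8, 55.9 and 62.9 FPKM in DN4 and at 5.56 and 8.22 FPKM in ImmV2 (F test adjusted p = 0.283, limma). Of 9 partners of MEIS1 and HOXA9, 8 were tested and 0 called, with 1 at an unadjusted p under 0.05. Pbx2, a PBX homeodomain factor and the highest of them, ran from 0.01 to 84.1 FPKM over DN2 libraries alone.

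Among 12 family relatives of the members, 10 were tested and 1 was called in the F test, Bcl11b, the commitment factor related to Bcl11a (adjusted p = 0.00945, limma). The share of all genes tested was 1.4%, here and for the T-lineage list below. In DN1d, Bcl11b stood at 22.2 and 61.9 FPKM, and in DN2 at 13.3, 17.9 and 18.94 FPKM. It was at 17.1, 24.7 and 24.5 FPKM in DN4 and at 32.8 and 36.6 FPKM in ImmV2, but no DN1ab or DN1 ckit+ library exceeded 0.217 FPKM. DN1e lay between, at 0.905, 1.22 and 6.99 FPKM. The T-lineage list, 12 genes, had 3 called in the F test, Bcl11b, Cd3e and the factor gene Ets1 (adjusted p = 0.0254 for Ets1, limma). Ets1 was listed at the lowest value in every DN1ab, DN1e and DN1 ckit+ library, the 3 populations in which Flt3 was at 1.33 FPKM or more, and also in DN4 1. It was at 56.6 and 111 FPKM in DN1d, 12.1, 25.2 and 17.9 FPKM in DN2, 59.7 and 51.7 FPKM in the other DN4 libraries, and 53.0 and 99.7 FPKM in ImmV2. DN1d, ImmV2 and DN4 together exceeded DN1ab, DN1 ckit+ and DN2 in 2 of the 12, Bcl11b (3.47 ± 0.55, adjusted p = 0.0172, limma) and Cd3e, a CD3 chain gene, (6.00 ± 0.64, adjusted p = 0.000891, limma). Of all genes tested, 0.179% were called in that comparison, in either direction. Cd3e (F test adjusted p = 0.00207, limma) differed from Ets1 in 2 populations. It was at 25.0, 60.9 and 72.8 FPKM in DN1e, where Flt3 was at 1.33 FPKM or more. In DN2, where Flt3 was low, it was at 0.136, 0.01 and 0.830 FPKM. DN1ab had 1.56 and 0.331 FPKM, and DN1 ckit+ 0.261 FPKM or less.

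**Figure D4:**
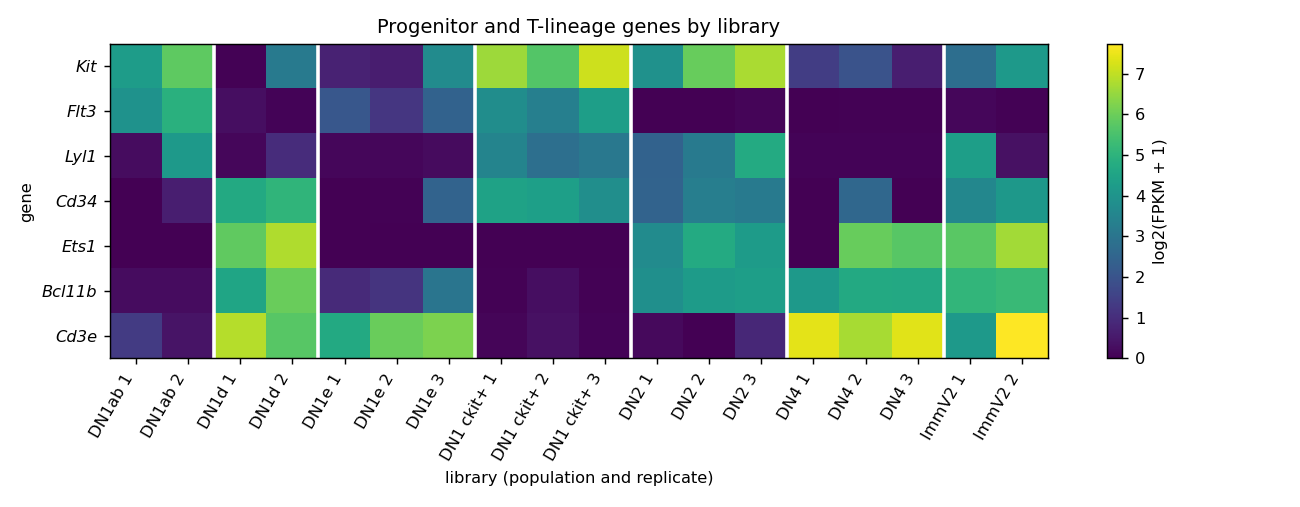
Levels of Kit, Flt3, Lyl1 and Cd34 and of the T-lineage genes Ets1, Bcl11b and Cd3e in each library, as colour on the log2(FPKM + 1) scale, with white lines between populations. Flt3 and Ets1 are high in different libraries, and Cd34 is high with Ets1 in DN1d and ImmV2.

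The genes most like each member over the 18 libraries were named by Pearson's r on log2(FPKM + 1). Nearest to Flt3 were Prg4 (r = 0.915) and Ralgds (r = 0.853). Prg4, which encodes lubricin, was at 10.9 and 8.85 FPKM in DN1ab, 7.75, 1.08 and 5.93 FPKM in DN1e, and 6.95, 7.75 and 5.43 FPKM in DN1 ckit+, with at most 1.32 FPKM in the other populations. Cd34 was most like Sp100 (r = 0.807) and the ribosomal protein gene Rps23 (r = 0.781), and Lyl1 most like Srl (r = 0.873) and Neurl1a (r = 0.865). The nearest to Mef2c were Bves (r = 0.900) and the T cell receptor segment Trbj2-5 (r = 0.867), and to Bcl11a they were Olfr1396 (r = 0.837) and A2m (r = 0.792). Meis1 was nearest to Snai1 (r = 0.856) and F13a1 (r = 0.854), and Hhex to Ccdc60 (r = 0.862) and Plch2 (r = 0.839). For Lmo2, the nearest were Defb37 (r = 0.969) and Olfr544 (r = 0.962), each at 1 FPKM or more in 2 libraries. For Hoxa9 they were Glb1l3 (r = 0.920) and Olfr388-ps1 (r = 0.911), likewise at that level in 2 libraries. These values describe 18 libraries on a shared scale and were picked as the highest of 24525.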

How the data were processed

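The authors deposited 1 table of log2 FPKM for 34082 gene symbols and 18 libraries. Per the labels' protocols, sorted cells were lysed directly, RNA was amplified by the NuGEN Ovation system, and each Illumina HiSeq library took 1 ng of cDNA. The submitters' processing notes name Bowtie and build mm8. The quantifier, annotation, scaling and reduction to 1 row per symbol were not given in those notes or labels, and the depth is unknown.

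Libraries were grouped by title. The deposited log2 values were raised back to FPKM and analysed as log2(FPKM + 1), a pseudocount of 1 FPKM. Genes that reached 1 FPKM in 2 or more libraries went into limma (version 3.58.1, R version 4.3.3, eBayes with a trend), all 18 libraries in 1 fit of population means, two-sided, with Benjamini-Hochberg adjustment over 24525 genes. A call needed an adjusted p under 0.05 and, in comparisons, an absolute log2 difference of at least 1. Tables and figures were made in Python 3.11.15 (pandas 2.3.3, matplotlib 3.10.9). The fit was tested on simulated data. No 2 libraries of a population held identical values (15 pairs).

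The 9 members, the lists and the comparisons were chosen with earlier results of these data known. From each list but that of the myeloid markers, genes called were named, or else the one with the highest mean. For each member the 2 nearest genes were named, passing over clones, unnamed rows and small RNAs, and fixed housekeeping and gate genes were added. Markers whose values go beside a result were named after their values were seen. The summed level of the B cell markers is not reported here. Promoters are RefSeq GRCm38.p6 sequences matched by symbol, a later build than mm8, and no coordinate was tied to the expression values. Alternatives were other pseudocounts, the values as deposited, other filters, quantile normalization, array weights, a replicate block, the compared populations alone and each library left out, with 1 added after seeing the data, the removal of ImmV2 1 and DN2 1.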

Additional observations from a re-analysis of the deposited data

How the results depend on the processing

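Flt3 passed the F test under all 27 alternatives, with adjusted p from 0.00129 to 0.0469 in limma, and it was the only member to do so. With no filter on low values and without DN1e 3, 2 members passed, Cd34 being the other, and leaving out each library in turn gave 1 to 2. All genes passing the F test numbered 343, with 146 to 464 over the alternatives. In the 12 pair comparisons 0 members were called, but with no filter on low values it was 1, Flt3, in DN1ab and DN1 ckit+ against ImmV2 and in DN1d, DN2 and DN4 against DN1 ckit+, and with array weights 1, again Flt3, in DN2 and DN4 against DN1 ckit+. In DN1e against DN1 ckit+, leaving out each library gave 0 to 1, the 1 being Cd34 without DN1e 3. For DN1d, ImmV2 and DN4 against DN1ab, DN1 ckit+ and DN2, 1 member was called, and 0 with a pseudocount of 0.1 FPKM, with the log2 FPKM as deposited, with the replicate block (Flt3 adjusted p = 0.103, limma), and without ImmV2 1 and DN2 1 together (the alternative added after seeing the data). There, leaving out each library gave 0 to 1. The adjusted p of Flt3 in that comparison ran from 0.00267 to 0.156 in limma over 27 alternatives, and the cause was not tested. Of 22 member differences with an unadjusted p under 0.05, 0 changed sign in 612 refits. Since the 22 were picked by that p in these same libraries, a change of sign was unlikely from the start.

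Counts of all genes called moved by more than 1.5 times in every comparison under some alternatives: 97 in DN1ab against ImmV2 (0 to 236), 68 in DN1d (0 to 212), 145 in DN1e (0 to 289), 81 in DN1 ckit+ (0 to 280), 46 in DN2 (0 to 233) and 61 in DN4 (3 to 253). Against DN1 ckit+ they were 73 in DN1ab (11 to 282), 89 in DN1d (5 to 283), 170 in DN1e (52 to 351), 15 in DN2 (1 to 60) and 51 in DN4 (10 to 137). They were 20 in DN4 against DN2 (2 to 56) and 44 in the comparison of 3 populations with 3 (11 to 126).

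Same-numbered libraries did not deviate together: 48 pairs had a median correlation of -0.00228 (-0.0164 to 0.0174), and 6 of 18 libraries correlated best with their own number. The replicate numbers are thus not taken as a pairing, and with the replicate block the F test still called 1 member. Hoxa9 fell under the filter in 3 alternatives and Lmo2 in 1, which gave no value.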

Other observations

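Lmo2, Lyl1 and Meis1 are also at work in erythroid cells and megakaryocytes, so markers of these were summed. Their sum over 7 genes ranged from 27.1 to 3158 FPKM in DN1e and from 984 to 1508 FPKM in DN1d, the populations with Lmo2 values at 1 FPKM or more. It reached as far in populations that listed Lmo2 at the lowest value in every library, 36.6 to 2285 FPKM in DN1ab and 35.3 to 3118 FPKM in DN1 ckit+. It was 29.4 to 45.2 FPKM in DN2, 0.0825 to 294 FPKM in DN4, which held the highest Meis1 value, and 23.8 to 5344 FPKM in ImmV2, where Meis1 was listed at the lowest value. Of the globin genes, Hbb-b1 was at 1 FPKM or more in 16 of 18 libraries, with a highest value of 49.5 FPKM, and Hba-a1 in 1 of 18. Gata1 reached 2217 FPKM and Pf4 5029 FPKM. The 5 thymic epithelium markers summed to 24.0 to 34.3 FPKM in DN1e, against 0.05 to 4.72 FPKM in ImmV2, and to 7.63 FPKM or less in the other populations. Most of each DN1e sum came from a single gene. Epcam was at 22.3, 20.6 and 0.01 FPKM there, and Psmb11 at 0.937, 0.0187 and 34.2 FPKM. Foxn1 went the other way, at 0.280 FPKM or less in DN1e and at 3.35 and 4.88 FPKM in DN1ab. The part of thymic epithelium in the DN1e values was not tested. The 8 thymocyte markers summed to 36.5 to 161 FPKM in DN1 ckit+ and 366 to 621 FPKM in DN4, against 360 to 493 FPKM in ImmV2.

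Mef2a, a relative of Mef2c, was at 1.93 and 0.501 FPKM in DN1ab, at 1.39 and 1.34 FPKM in DN1d, while DN1e had 0.01, 0.665 and 0.0221 FPKM, against 35.5 and 10.5 FPKM in ImmV2. In DN4 it was at 10.3, 20.2 and 26.7 FPKM (F test adjusted p = 0.154, limma). It was chosen after its values were seen.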
